A study of Mus musculus with 7 samples.

Results

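The 8 E2F genes and the 2 DP genes of the mouse were followed in haematopoietic stem cells (HSCs) of old and young mice. They were taken by symbol (E2f1 to E2f8, Tfdp1 and Tfdp2), and all 10 were among the 24015 genes of the count table. The HSCs were sorted from the bone marrow of C57BL/6 mice as LSKCD150+CD48- cells, that is lineage-negative, Sca-1+ and c-Kit+ cells with CD150 and without CD48, and the polyA RNA of each sorted population gave a bulk library. Old HSCs gave 3 libraries and young HSCs 4, and the design sets old against young. The labels give neither ages in months nor whether each library is a separate mouse, so p-values measure only the spread between libraries, which may be technical.

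E2F proteins bind DNA next to genes needed for DNA synthesis and decide, together with the retinoblastoma (pocket) proteins, whether a cell enters S phase. E2F1, E2F2 and E2F3 are known as activators. E2F4 and E2F5 act mostly as repressors held at promoters by pocket proteins in resting cells. E2F6 represses without pocket proteins, within a Polycomb complex, and the atypical E2F7 and E2F8 repress without a DP partner. The DP proteins, encoded by Tfdp1 and Tfdp2, form the DNA-binding dimer with E2F1 to E2F6. HSCs of adult marrow rest outside the cycle most of the time, the state in which the pocket proteins and repressor E2Fs are known to hold S phase genes off.

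E2F genes are themselves among the genes that E2F proteins are known to bind, so the promoters were searched for the classical E2F site. The motifs TTTCCCGC, TTTCGCGC, TTTGCCGC and TTTGGCGC were looked for on both strands in RefSeq promoter windows of build GRCm38, each with 250 bases before the start of a transcript and 50 after it. A window matched for 8 members, with 12 windows in all. A motif was present in windows of E2f2, E2f3, E2f7 and Tfdp1, in 5 of the 12 windows (41.7%), against 744 of all 32851 promoter windows (2.26%). Both Tfdp1 windows hold the same site. The sites are shown with 10 bases on either side where the window allows, read 5′ to 3′ on the strand of the gene, with the motif in capitals.
E2f2 (chr4:136172303-136172323, plus strand): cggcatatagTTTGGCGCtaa
E2f3 (chr13:29986057-29986084, minus strand): tgaaaagccgGCGGGAAAtctgagtttc
E2f7 (chr10:110745231-110745258, plus strand): ccgcgtccccGCGGGAAAcgctcccgcg
Tfdp1 (chr8:13338698-13338725, plus strand): ggcgccgaagGCGCGAAAaggcgcgcag
Cdc6 (chr11:98908003-98908030, plus strand): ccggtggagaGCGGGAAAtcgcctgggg
Mcm5 (chr8:75109346-75109373, plus strand): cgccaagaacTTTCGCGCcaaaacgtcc
Cdc6 and Mcm5, helicase-loading and helicase genes of replication, are given as 2 textbook E2F targets whose levels appear below. Only targets that held a motif could be shown here. In Mcm5 a TTTGGCGC site on the other strand overlaps the one in capitals. Of a list of 48 S phase targets of E2F, 39 had a window and 16 of these (41%) held a motif. The promoters of E2f4 and E2f5 were not analysed here. The E2f1 window lay in annotated exons over all 250 bases before its start. A match to these letters is a description of the sequence and not evidence of binding, and base composition was not matched.

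The libraries of old HSCs held between 27369677 and 32401925 counts and those of young HSCs between 22203806 and 27146186. Of 11506 genes with enough counts to be tested, 29 (0.252%) passed an adjusted p of 0.05 in edgeR's quasi-likelihood test, and 3108 had no count in at least 1 library. On the first principal component (27.7% of the variance) young 1 stood apart with a score of 220.9, and on the second (21.5%) young 2 with 196.9, so results are also given without these. Young 1 and young 2 also had the fewest genes with a count, 10576 and 10815, against 11401 to 12073 in the other libraries. The part of this in zeros of single genes in young 1 and young 2 was not tested. All 10 HSC markers had counts in both groups, with summed levels of 3296 to 3533 CPM (counts scaled to library size with TMM factors) in old and 1798 to 2856 CPM in young libraries. Procr passed as higher in old (edgeR adjusted p = 0.00643), while Hlf, Kit and Meis1 had lower means in old than in young. Of 3 markers of multipotent progenitors, the sums were 85.2 to 135 CPM in old and 260.6 to 407 CPM in young libraries. Cd48 and Flt3 had no count in old, so Cd34 made up the whole of the old sums. The 7 erythroid markers summed to 20.2 to 77.8 CPM in old and 139 to 240.7 CPM in young libraries, with the globin genes Hba-a1 and Hbb-b1 at 0 throughout. Of 9 myeloid markers, Ctsg and Ltf had no count in any library and Mpo none in old. The myeloid sums were 1424 to 2207 CPM in old and 862 to 1441 CPM in young. Prtn3 passed as higher in old, with a mean of 644.6 CPM against 150.8 CPM (edgeR adjusted p = 0.0242). Lyz2, with a mean of 1200 CPM in old against 909.4 CPM, did not pass (edgeR adjusted p = 0.797). Lyz2 and Prtn3 made up nearly all of the myeloid sums. Sums of the 6 megakaryocyte markers (219 to 414 CPM in old, 277 to 563 CPM in young) and the 8 lymphoid markers (22.6 to 104.7 CPM in old, 72.6 to 388 CPM in young) overlapped, and Cd3e, Dntt and Il7r were at 0 in all 7 libraries. Nkg7 made up nearly all of the lymphoid sums.

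No E2F or DP gene passed the threshold over all genes, against 0.252% of all tested genes (0.235% higher and 0.0174% lower in old). Of the 10 members, 9 had enough counts to be tested, and all except E2f2 were among these. In edgeR none had an unadjusted p under 0.05, and neither DESeq2 nor limma-voom called a member, against 3.81% and 0.435% of all genes. At an unadjusted p under 0.05 DESeq2 had 1 of the 9 members, against 12.3% of all genes, and limma-voom 3 of the 9, against 12.4%. In 3 of the 9 the old and young libraries nonetheless did not overlap: E2f5 lay higher in old, E2f1 and Tfdp2 lower. Groups without overlap made up 12.7% of all genes tested, with 7.55% higher and 5.18% lower in old. The smallest adjusted p among the members was 0.621, for E2f5.

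**Figure D1:**
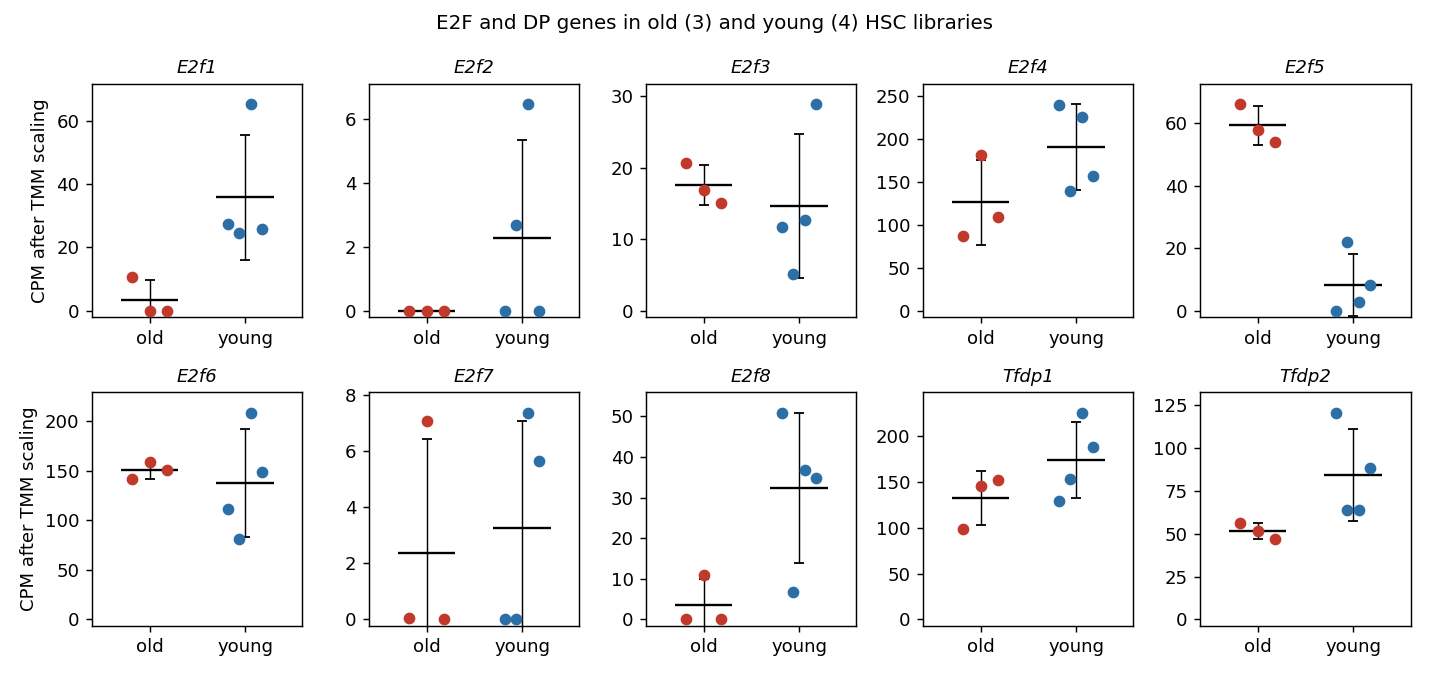
CPM after TMM scaling of each E2F and DP gene in the 3 old and 4 young HSC libraries (points), with the mean (line) and SD (bar, cut at the lower edge where it would pass below 0). The old libraries of E2f5 sit at 54.1 to 66.1 CPM and the young at 0 to 22.01 CPM, while E2f1 shows the opposite order.

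Among the activators, E2f1, the best-known driver of S phase genes, had counts in 1 of the 3 old libraries and in all 4 young ones. It had 10.6, 0 and 0 CPM in old 1, old 2 and old 3, against 27.6, 24.5, 65.3 and 26.0 CPM in young 1 to young 4. Every young library held more than any old one, and the counts behind the values were 280, 0 and 0 in old and 536 to 1807 in young. The means were 3.53 ± 6.11 CPM in old (SD, n = 3) and 35.8 ± 19.7 CPM in young (SD, n = 4), and the ratio of old to young was 0.0984. The log2 fold change of -3.34 ± 2.04 (SE) had an adjusted p of 0.748 in edgeR, and its 95% interval ran from -7.94 to 1.26. A count of 0 in an old library allowed up to 0.0929 CPM in old 2 and 0.115 CPM in old 3, the worth of 3 counts, which covers counting error only. In bulk RNA, fewer cells with a transcript and less of it per cell cannot be told apart.

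E2f2, an activator known for its place in erythroid and lymphoid precursors, had counts in 2 of the 7 libraries, both young. It had no count in any old library, 2.69 CPM in young 2 and 6.47 CPM in young 3, and none in young 1 and young 4. With too few libraries for the filter it was left out of the main test. With no filter on low counts the fitted log2 fold change was -8.93 ± 4.11 (edgeR adjusted p = 0.524), which is not a measured fold. Its young mean of 2.29 ± 3.06 CPM was at least 21.4-fold above 0.107 CPM, the mean worth of 3 counts per old library. This covers counting error in old only and not the spread between the young libraries. That bound rests on young 3 and is at least 8.4-fold without it. E2f3, whose locus makes a long and a short protein that were counted together, had 20.6, 16.9 and 15.1 CPM in old and 11.8, 5.11, 12.7 and 28.9 CPM in young. The old libraries lay inside the young range (log2 fold change 0.26 ± 0.89, edgeR adjusted p = 0.986), and without young 2 the value was -0.02.

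The pocket-protein-bound repressors E2f4 and E2f5 had log2 fold changes of opposite sign, and neither passed. E2f5 had 66.1, 57.9 and 54.1 CPM in old 1 to old 3, against 0, 22.01, 2.67 and 8.29 CPM in young 1 to young 4. All old libraries were alike and above every young one, while the young ones ranged over everything from no count to 482 counts. The means were 59.4 ± 6.15 CPM in old and 8.24 ± 9.81 CPM in young, a 7.20-fold ratio. In edgeR the log2 fold change was 2.85 ± 1.41 with an adjusted p of 0.621 and an interval of -0.32 to 6.02. Leaving out the young libraries that stood apart kept the sign: the value was 2.43 without young 1, 4.02 without young 2 and 3.43 ± 0.70 without both (adjusted p = 0.198). E2f5 shares 26 exon bases with the antisense gene 1810022K09Rik in the annotation, and the library kit does not mark strand, so a few reads of either could be mixed.

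E2f4 had the highest level per kb of all 10 genes in both groups by exon length. It had 87.3, 181.5 and 109 CPM in old and 239.6, 139.5, 225.6 and 156 CPM in young. Old 2 lay within the young range and the other old libraries below it. The means of 126 ± 49.2 CPM in old and 190.2 ± 49.8 CPM in young gave a log2 fold change of -0.59 ± 0.33 (edgeR adjusted p = 0.678), which was -0.97 without old 2.

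E2f6, the Polycomb-linked repressor, had nearly the same level in all old libraries. These held 142, 159 and 151 CPM, against 112, 81.7, 208 and 149 CPM in the young, whose range enclosed them. The log2 fold change was 0.13 ± 0.32 (edgeR adjusted p = 0.983) with an interval of -0.60 to 0.86, and it was -0.05 without young 2.

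The atypical repressors E2f7 and E2f8 were each without a count in some libraries, E2f8 only in old ones. E2f8 had 0, 10.99 and 0 CPM in old and 50.8, 6.80, 36.7 and 34.9 CPM in young. Only old 2 of the old libraries held E2f8, with 355 counts, and it exceeded young 2 with 149. The means were 3.66 ± 6.34 CPM in old and 32.3 ± 18.4 CPM in young (log2 fold change -3.14 ± 2.08, edgeR adjusted p = 0.794, interval -7.83 to 1.55). E2f7 had 0.0378, 7.09 and 0 CPM in old and 0, 0, 7.37 and 5.64 CPM in young, where 0.0378 CPM was a single count. Old 2 was thus again the old library with the gene. The log2 fold change of -0.45 ± 2.73 (edgeR adjusted p = 0.991) was -7.12 without old 2 and 0.13 without old 3. E2f8 shares 610 exon bases with Gm2788 on the other strand and E2f7 shares 86 with 1700020G17Rik, which unstranded reads cannot separate.

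Both DP genes had at least 1225 counts in every library. Tfdp1, the main partner, had 98.95, 146 and 152 CPM in old and 129.5, 153.5, 225 and 189 CPM in young, overlapping ranges with a log2 fold change of -0.40 ± 0.28 (edgeR adjusted p = 0.818). Tfdp2 had 56.2, 51.8 and 47.1 CPM in old and 120.6, 64.2, 64.2 and 88.5 CPM in young. Here the groups did not overlap, although young 2 and young 3 were only slightly above old 1. The means were 51.7 ± 4.59 CPM in old and 84.4 ± 26.7 CPM in young (log2 fold change -0.71 ± 0.36, edgeR adjusted p = 0.635), and the value was -0.48 without young 1.

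**Figure D2:**
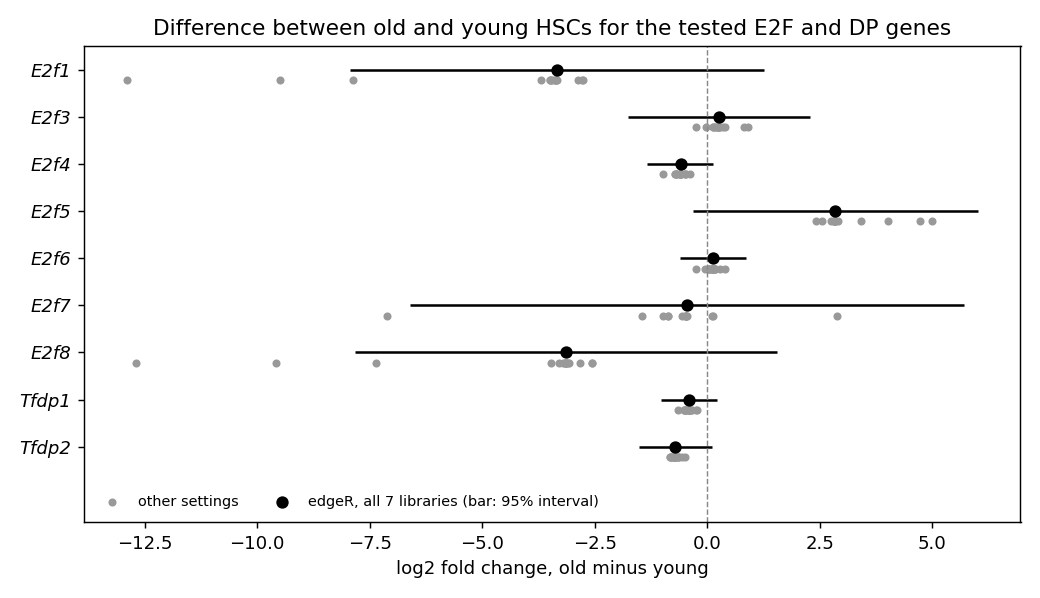
Log2 fold change (old minus young) of the 9 tested members by edgeR with all 7 libraries (black, with the 95% interval) and under each other setting (grey). Every black interval includes 0, and the values of E2f1 and E2f8 near -13 come from leaving out the single old library that held the gene.

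The make-up of E2F transcripts was compared within libraries after dividing CPM by exon length, and the shares depend on that choice of length. E2f4 took 33.9, 52.7 and 42.7% of the summed E2F level in old 1 to old 3, against 55.3 to 70.9% in young libraries. E2f5 took 23.1 to 35.4% in old and 0 to 13.1% in young. By exon length the shares of each gene did not overlap between the groups, while those of the pair together, 69.3 to 75.8% in old and 57.6 to 73.5% in young, did. By coding length the shares of E2f4 overlapped, with 21.3 to 35.2% in old and 33.9 to 51% in young. Those of E2f5 did not overlap by coding length either, with 13.7 to 19.6% in old and 0 to 8.31% in young. The pair together took 40.9 to 48.9% in old and 35.6 to 51.5% in young by that length. By exon length the activators made up 2.21 to 6.81% in old and 7.92 to 15% in young, and E2f1 alone 0 to 3.19% in old and 6.34 to 12.8% in young. E2f6 took 20 to 25.6% in old and 14.4 to 22.8% in young, and E2f7 with E2f8 0 to 2% in old and 1.33 to 6.78% in young. Shares of one total depend on each other, and no test was run on them.

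**Figure D3:**
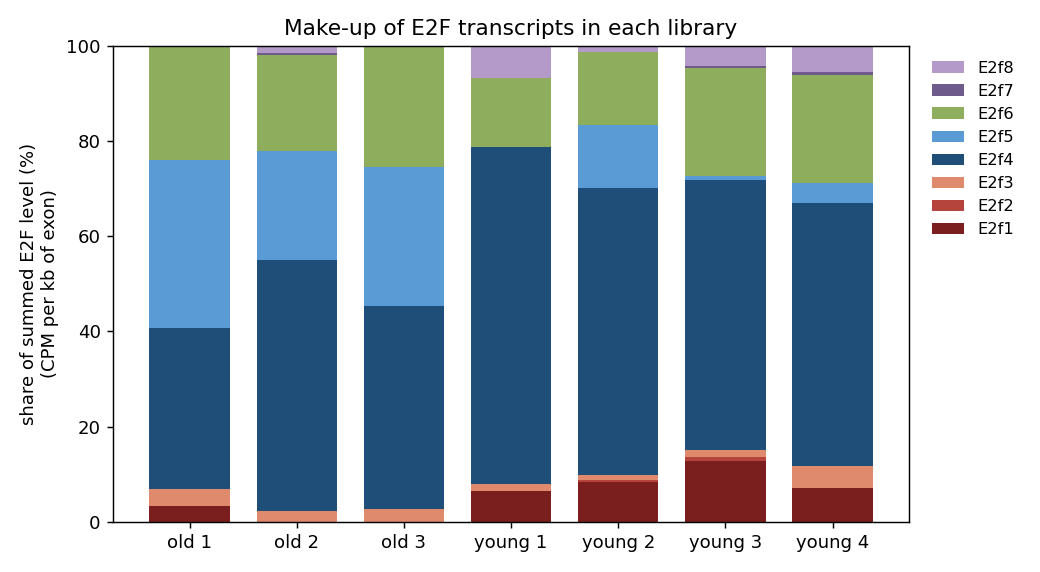
Share of each E2F gene in the summed E2F level (CPM per kb of exon, in percent) of each library. E2f5 (light blue) holds 23.1 to 35.4% in the old libraries and at most 13.1% in the young, and E2f1 (dark red) is missing from old 2 and old 3.

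Ordered by CPM per kb of exon, old HSCs had E2f4 first (51.4 ± 20.1), followed by Tfdp1 (36.1 ± 7.97), E2f5 (33.3 ± 3.45) and E2f6 (26.6 ± 1.52). Below these came Tfdp2 (3.68 ± 0.327), E2f3 (3.23 ± 0.516), E2f1 (1.12 ± 1.94), E2f8 (0.673 ± 1.17), E2f7 (0.264 ± 0.453) and E2f2 at 0. The ranges of neighbours in this order overlapped except between E2f5 and E2f6 and between E2f6 and Tfdp2. In young HSCs the order was E2f4 (77.6 ± 20.3), Tfdp1 (47.5 ± 11.4), E2f6 (24.3 ± 9.63), E2f1 (11.4 ± 6.24), Tfdp2 (6.01 ± 1.91), E2f8 (5.93 ± 3.39), E2f5 (4.63 ± 5.50), E2f3 (2.69 ± 1.86), E2f2 (0.469 ± 0.627) and E2f7 (0.361 ± 0.424). There every pair of neighbours overlapped. E2f5 thus had rank 3 in old and rank 7 in young HSCs, and E2f1 rank 7 in old and rank 4 in young. The order depends on the length used: per kb of coding sequence E2f6 came first in both groups, with 184.9 ± 10.5 in old and 169 ± 66.8 in young. Tfdp2, with 14.029 kb of exon and 1.338 kb of coding sequence, had 38.6 ± 3.43 per coding kb in old HSCs, against 58.9 ± 6.11 for E2f5, and 63.05 ± 19.99 in young HSCs, against 8.18 ± 9.73 for E2f5.

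The genes with the most similar pattern over the 7 libraries were sought for the 3 members with the smallest p, among the 8606 genes whose mean reached 10 CPM. Likeness was the root-mean-square difference between centred log2 CPM. For E2f5 these were Gstm7 (0.657), Rnf185 (0.696) and Trib1 (0.698), for Tfdp2 Zc3hc1 (0.105), Arid1a (0.106) and Rbm17 (0.193), and for E2f4 Vegfb (0.127), Hsd17b4 (0.151) and Nubp1 (0.172). None of the 9 passed the old against young test (edgeR adjusted p of 0.543 to 0.916). They were picked for likeness to members that did not pass, over the same libraries, so this is no separate result.

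The S phase targets of E2F had a negative log2 fold change in 46 of 48 genes, although none passed over all genes in edgeR. The median was -1.54, against -0.03 over all tested genes, and 29 had an unadjusted p under 0.05, against 1049 of all 11506 tested genes (9.12%). In 25 of the 48 the groups did not overlap, all lower in old, against 5.18% of all tested genes. Ccna2, whose cyclin drives S phase and entry into mitosis, had 25.1, 19.8 and 27.97 CPM in old and 248.9, 103, 80.9 and 112 CPM in young (edgeR adjusted p = 0.0918). Cdc6, whose site is shown above, had 32.9, 11.95 and 19.75 CPM in old and 143, 68.1, 101 and 84.4 CPM in young (adjusted p = 0.138). Mcm5 had 8.50, 38.7 and 3.92 CPM in old and 231, 93.4, 418 and 240 CPM in young (adjusted p = 0.140).

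Within each group the libraries differed in S phase transcripts. The mean log2 CPM of the 48 targets was 3.89, 5.44 and 3.84 in old 1 to old 3 and 6.16, 5.86, 6.84 and 6.67 in young 1 to young 4. In old the order of these means was not that of E2f1: old 2, the highest, had 0 E2f1, and old 1 held the E2f1 counts. Old 2 was, however, the only old library with E2f8 and held the most E2f7. Among the young, young 3 had the highest mean and the most E2f1, and young 1, with the most E2f8, had the second lowest mean. E2f7 had 7.37 and 5.64 CPM in young 3 and young 4, with the higher means, and 0 in young 1 and young 2. A relation between members and means was not tested. The median log2 fold change was -2.00 without old 2. DESeq2 called 13 of the 48 lower, among them Ccna2, Cdc6 and Mcm5, against 1.91% of all genes called lower. Restricted to genes averaging 50 CPM or more, edgeR called 7 of 31 lower, against 1.13% of all such genes. The list overlaps genes whose lower level was already known in these data, so it adds no independent support. The progenitor and erythroid marker sums were lower in every old library, as given above, and their part in these values, or in those of E2f1 and E2f8, was not tested.

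**Figure D4:**
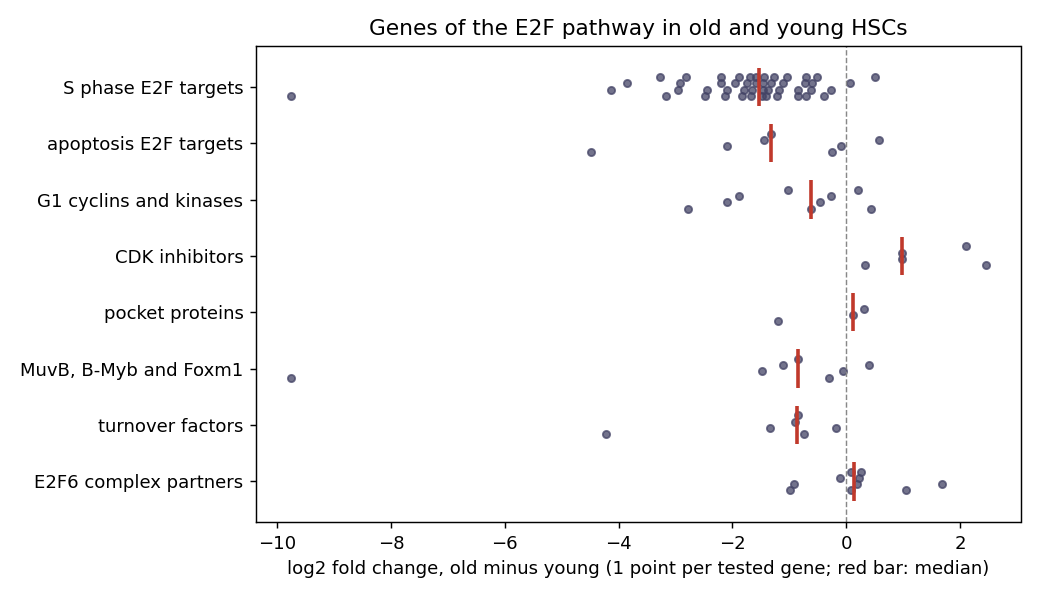
Log2 fold change (old minus young, edgeR) of each tested gene of 8 pathway lists, with the median in red. The S phase targets centre on -1.54 and the CDK inhibitors on 0.98. The point near -10, Mybl2, has no count in any old library, belongs to both the S phase and the MuvB lists, and its fitted value is not a measured fold. Ccne1 and Ccne2 likewise belong to both the S phase and the cyclin lists.

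Upstream of the E2Fs, cyclin D and cyclin E kinases release E2F from pocket proteins, and the CDK inhibitors restrain those kinases. No gene of these lists passed over all genes in edgeR. DESeq2 called Cdk4 and the pocket protein gene Rbl1 lower, as it did 1.91% of all genes. Cdk4, a partner of D cyclins, had 861, 1008 and 1061 CPM in old and 1373, 1479, 1270 and 1238 CPM in young (log2 fold change -0.46 ± 0.18, edgeR adjusted p = 0.447). Ccne2, which encodes cyclin E2, had 7.86, 25.85 and 0.615 CPM in old and 48.4, 81.5, 26.8 and 38.8 CPM in young (edgeR adjusted p = 0.633), and Ccnd3 averaged 171 ± 45.9 CPM in old HSCs and 263 ± 61.5 CPM in young. Of the 9 cyclin and kinase genes, counting the phosphatase gene Cdc25a, 7 had a negative log2 fold change (median -0.62). The cyclin E genes Ccne1 and Ccne2, both negative, are also on the S phase target list, so the 2 lists are not independent.

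The log2 fold change was above 0 for all 5 tested inhibitor genes, with a median of 0.98, and in 3 the groups did not overlap, against 7.55% of all tested genes that were higher without overlap. Cdkn2c, which encodes the CDK4 and CDK6 inhibitor p18, had 63.3, 38.4 and 51.4 CPM in old and 22.5, 3.20, 8.45 and 13.5 CPM in young (log2 fold change 2.10 ± 0.75, edgeR adjusted p = 0.369). Cdkn1a, which encodes p21, had 14.01, 13.6 and 9.26 CPM in old and 0, 0, 4.77 and 4.21 CPM in young (adjusted p = 0.884). Its zeros fell in young 1 and young 2, the libraries with the fewest genes detected. Cdkn1c averaged 96.8 ± 21.3 CPM in old HSCs and 49.3 ± 21.2 CPM in young. Cdkn2a and Cdkn2b had no count in any of the 7 libraries.

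Among the pocket protein genes, Rbl1, which encodes p107, a partner of E2F4 and E2F5, had 36.1, 36.5 and 44.3 CPM in old and 96.8, 109, 79.0 and 72.5 CPM in young. The groups did not overlap, and the log2 fold change was -1.20 ± 0.34 (edgeR adjusted p = 0.229). Rb1 and Rbl2 ranged widely in both groups, Rb1 from 11.7 to 44.8 CPM in the old libraries and 1.37 to 61.8 CPM in the young ones, and Rbl2 from 39.2 to 125 CPM in the old libraries and 2.45 to 121 CPM in the young ones. Of the 7 genes of the MuvB core and its partners B-Myb and FoxM1, which take over cell cycle genes from E2F4 complexes, 6 had a negative log2 fold change (median -0.84). Mybl2, encoding B-Myb, had no count in old and 0, 6.48, 2.78 and 7.07 CPM in young (edgeR adjusted p = 0.346). Its young mean was at least 38.1-fold above the mean worth of 3 counts in old, which covers counting error only. Lin9 averaged 11.2 ± 13.6 CPM in old HSCs and 31.6 ± 27.7 CPM in young, and the histone chaperone gene Rbbp4 216.5 ± 72.03 CPM in old and 269 ± 62.4 CPM in young.

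Of the 6 genes of E2F turnover, which tag E2Fs or their partners for destruction or inhibit that step, all had a negative log2 fold change and none passed (median -0.87). Ccnf, encoding cyclin F, which targets activator and atypical E2Fs, had 0, 7.43 and 0.423 CPM in old and 59.7, 0, 55.6 and 79.9 CPM in young (edgeR adjusted p = 0.663). Cdc20 averaged 34.6 ± 20.5 CPM in old HSCs and 87.7 ± 29.3 CPM in young, and Fzr1 74.8 ± 39.2 CPM in old and 139.5 ± 56.6 CPM in young.

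The apoptosis targets of E2F1 gave no called gene among 7 tested, of which 6 had a negative log2 fold change (median -1.33). Casp8ap2 averaged 8.50 ± 3.32 CPM in old HSCs and 36.5 ± 29.7 CPM in young (edgeR adjusted p = 0.513), and Casp9 0.349 ± 0.500 CPM in old HSCs and 7.86 ± 11.4 CPM in young. Trp73 and Pmaip1 had no count in any library.

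The partners of E2F6 in its Polycomb complex had no common direction, with 7 of 10 tested genes positive and a median of 0.13. Max, the shared partner of the MYC and MGA proteins, had 200.2, 203 and 168 CPM in old and 90.3, 86.2, 65.7 and 128 CPM in young (log2 fold change 1.04 ± 0.28, edgeR adjusted p = 0.194), and DESeq2 called it higher, as it did 1.9% of all genes. Mga, the scaffold of the complex, had 36.3, 39.6 and 21.6 CPM in old and 43.1, 49.5, 68.1 and 84.9 CPM in young (adjusted p = 0.633), and Cbx3 averaged 11.6 ± 2.23 CPM in old HSCs and 23.05 ± 7.80 CPM in young. Of 9 germline genes that E2F6 is known to silence in other cells of the mouse, Tuba3a, Slc25a31, Taf7l and Mael had no count in any library. Hsf2bp, Smc1b and Tuba3b had counts but did not pass the filter. Hsf2bp had 4.918 CPM in old 3 and 7.585 CPM in young 3 only. Smc1b reached 1.665 CPM and Tuba3b 0.0696 CPM, in young libraries only. Stag3 had 2.30, 17.6 and 0 CPM in old and 0, 0, 1.95 and 11.04 CPM in young (edgeR adjusted p = 0.983), and Ddx4 0.340, 0 and 0 CPM in old and 13.5, 10.1, 0 and 6.37 CPM in young (adjusted p = 0.607).

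**Figure D5:**
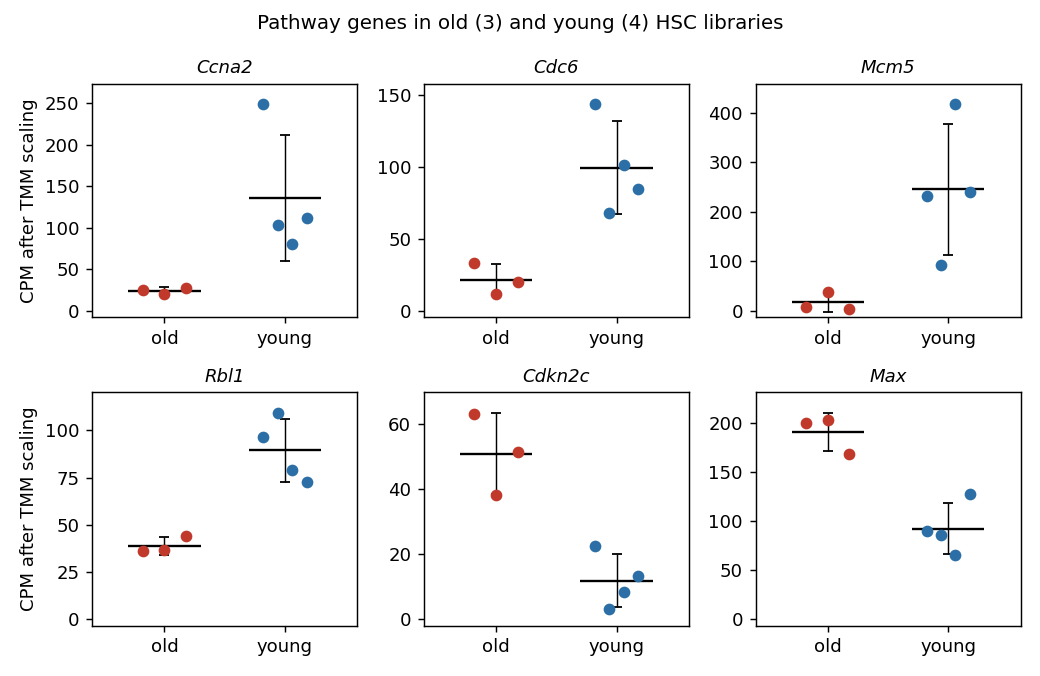
CPM after TMM scaling of 6 pathway genes in the 3 old and 4 young HSC libraries (points), with the mean (line) and SD (bar, cut at the lower edge where it would pass below 0). The groups do not overlap for any of the 6, which are among genes named for their small p, against 12.7% of all tested genes. Ccna2, Cdc6, Mcm5 and Rbl1 are lower and Cdkn2c and Max higher in old libraries. None passed the threshold over all genes in edgeR, while DESeq2 called all except Cdkn2c.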

How the data were processed

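The authors deposited a table of unnormalised counts with 1 row per gene symbol, for 3 old and 4 young libraries. Per the labels' protocols, cDNA was made with Smart-seq+ and libraries with Nextera XT, a kit without strand information. Trimmomatic, FastQC, STAR, featureCounts and build mm9 are named, per the submitters' processing notes. For versions, annotation and strand setting, the sources used here give nothing. Amplification copies are counted, since no molecular identifiers are stated.

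Analyses used edgeR 4.0.16 in R 4.3.3, with DESeq2 1.42.0 and limma 3.58.1 as alternatives. Genes passing filterByExpr (minimum count 10, total 15) were TMM-scaled and old was compared with young by edgeR's quasi-likelihood F test, 2-sided, with Benjamini-Hochberg adjustment over all 11506 genes. SEs were obtained from the log2 fold change and the root of its F statistic. As a check for duplicate libraries, pairs within a group were compared by chi-square (at least 185.5 per degree of freedom). This sets them against read-counting error only, with amplification copies counted, and speaks to duplicates alone. Exon lengths are from GENCODE M21 and promoters from RefSeq (both GRCm38, not mm9). The gene-wise tests were tested on simulated data.

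The members and gene lists were chosen with earlier results of these data known. Named genes are all members, up to 3 genes of each pathway list with the smallest p, and the nearest genes of 3 members. The values of 1 gene under this rule are not reported here. Alternatives were 3 other scalings, DESeq2, limma-voom, 3 other filters, a replicate block, each library left out in turn and coding length. Leaving out young 1 and young 2 together was added after seeing the data.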

Additional observations from a re-analysis of the deposited data

Results flagged for a closer look

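E2f1 in young 3 stood far from the other young libraries, with 65.3 CPM against 24.5 to 27.6 CPM, a gap of 0.925 of the group's range. It was the only such case among 36 genes, the members and the named pathway genes, checked in the 4 young libraries. Chance alone gives such a result in about 1 in 20 of the genes checked, so 1 case among 36 is not unusual. Without young 3 the log2 fold change of E2f1 (old minus young) was -2.88 ± 2.32 (SE), against -3.34 ± 2.04 with all libraries, and edgeR's adjusted p was 0.946. The old group has 3 libraries and was not checked.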

How the results depend on the processing

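No member passed the threshold under any of the settings run. E2f1, E2f4, E2f5, E2f8, Tfdp1 and Tfdp2 kept their sign wherever they were tested. E2f3 turned to -0.25 and E2f6 to -0.25 without both young 1 and young 2, and leaving out 1 library gave -0.02 to 0.83 for E2f3, -0.05 to 0.40 for E2f6 and -7.12 to 0.13 for E2f7, whose sign also turned with a replicate block (2.88). The cause was not tested. E2f1 reached -12.90 without old 1 and E2f8 -12.70 without old 2, which leaves the old group with no count (adjusted p = 0.141 and 0.133). The number of genes called over the whole table, 29, was 16 when scaled by library size alone, 431 with DESeq2, 50 with limma-voom, 130 among genes of at least 50 CPM, 7 without young 1 and young 2, and 2 to 18 when 1 library was left out. Of the S phase targets, 13 passed with DESeq2, 7 among genes of at least 50 CPM and 0 to 1 when 1 library was left out (Mcm2, without young 2), and their median stayed within -2.00 to -1.28. Of the 46 other pathway genes tested, 3 passed with DESeq2, against 3.81% of all genes. Fitted with the replicate number as a block, edgeR called 0 genes (694 at an unadjusted p under 0.05). In that fit young 4 had no old library of its number, and fewer degrees of freedom were left. Same-numbered libraries did not deviate together more than others (correlations of -0.0745 to 0.0254, against -0.07 to 0.0849 for the other pairs). Whether they shared more than a number, such as a batch, cannot be told from these values. Scaling by library size alone moved the median of all genes to -0.12, against -0.03 with TMM. Depth limits levels below 0.0929 to 0.137 CPM, the worth of 3 counts.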
